A study of Mus musculus with 12 samples.

Results

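Pituitaries of mice with a knocked-out Crhr1 gene were compared with pituitaries of wild-type mice 3 h into a restraint stress. Of the 12 arrays of the series, the 4 whose titles name this time point were used, 2 of knockout RNA and 2 of wild-type RNA. The animals of both genotypes had received the same treatment. Metyrapone, which blocks the enzyme that completes corticosterone synthesis, was injected at 150 mg/kg 12 h before stress and at 100 mg/kg immediately before it. Restraint lasted 30 min, and the pituitaries were taken 3 h after it began. The other 8 arrays, 2 for each genotype 1 h after stress began and 2 for each genotype without stress but with the same injections, share the statistical fit and are quoted where they bear on a gene. Strain, age, sex, the deleted part of the gene and the number of mice per pool are not given in the sources used here. RNA of a group was pooled and amplified once, and the titles call its 2 arrays technical replicates, although the design text could also be read as 2 pools. Errors and p-values therefore measure the spread between arrays and not between mice. The source field of the knockout 3 h arrays gives 1 h as the time of death, against their titles and descriptions, and that of the knockout control arrays gives restraint and death at 1 h. The titles were followed, so each value from knockout controls or knockout 3 h arrays rests on them.

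Corticotropin-releasing hormone from the hypothalamus acts on its receptor CRHR1 on pituitary corticotropes. The receptor raises cAMP, which drives release of ACTH and transcription of its precursor gene Pomc. ACTH makes the adrenal cortex secrete glucocorticoids, and these act back on the pituitary through the glucocorticoid receptor, which switches on genes such as Fkbp5 and the metallothioneins. Mice without CRHR1 are known for small adrenals and low corticosterone. Per the design text, metyrapone served to block the negative feedback of corticosterone on the axis, and corticosterone was not measured in the files used here.

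The knockout arrays were less alike than the wild-type arrays. At a detection p under 0.01 the knockout arrays detected 12463 and 6119 of 46147 probes, against 13506 and 11594 on the wild-type arrays. The second knockout array, with 13.3% of its probes detected, also had the widest spread between beads of one probe, with a median standard error of 10.5% of the signal, against 6.69% on the wild-type array of the same slide. Across 11766 features its correlation with the first knockout array was 0.926, against 0.974 between the wild-type arrays, and the log2 differences between arrays of a pair had an SD of 0.702 in knockout and 0.378 in wild type. The fit gave each group its own weight for this reason, 0.334 for knockout at 3 h and 1.25 for wild type at 3 h. All first arrays lay on one slide and all second arrays on the other, so a difference can be read once on each slide. In bulk tissue, fewer cells of a type and less RNA per cell cannot be told apart.

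The targeted gene was examined first. Probe 5390647 for Crhr1 had log2 levels of 5.12 and 5.70 on the knockout arrays, neither detected, against 6.28 and 6.27 on the wild-type arrays, both detected. The wild-type levels lay above both knockout levels. With the knockout below detection no size is given, and the probe did not pass the test (adjusted p = 0.601). The other probes, 450161 and 3140070, were detected on 0 of the 4 arrays, at log2 levels between 5.05 and 5.79. Over the whole series probe 5390647 was detected on 0 knockout and 4 wild-type arrays, probe 450161 on 1 of each, and probe 3140070 on 0. Where the 3 probes lie relative to the deletion is not given, so they say little about the genotype labels.

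Of 11766 features, 23 (0.195%) differed between knockout and wild type at 3 h by at least 1.5-fold with an adjusted p under 0.05 (limma with Benjamini-Hochberg adjustment). Of these, 9 (0.0765%) were higher in knockout and 14 (0.119%) were lower. An unadjusted p under 0.05 was reached by 1202 features (10.2%), and at 4938 features (42.0%) the levels of the 2 groups did not overlap. The median log2 difference of all features was -0.09, and the median standard error was 0.32, against 0.21 for the same comparison in controls. A count that needs no error estimate is that of features at least 1.5-fold apart on both slides, which held 220 higher (1.87%) and 491 lower (4.17%). This split leans on the scaling of the arrays: 30.9% of these features were higher, but 5.15% (79 higher and 1456 lower) when arrays were centred on their medians, which moved the median of all features to -0.51, and 42.5% (299 and 404) with cyclic loess, which moved it to 0.01. Of the 491 lower features 16.5% were detected on both knockout arrays and 89.2% on both wild-type arrays. Of the 220 higher ones, 67.7% were detected on both knockout arrays and 63.2% on both wild-type arrays. Without either wild-type 3 h array 3 features passed, namely Lipf, Dmbt1 and Lyz1, and without the first knockout array 2688 did. The part of the low detection on the second knockout array in these counts was not tested, and on the first slide alone 586 features (4.98%) were higher and 681 (5.79%) lower. All 23 called features had the same sign on both slides, but the call uses the arrays of both slides, so this is no separate support. Of the 23, 17 had 1 gene symbol and 6 had none.

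**Figure D1:**
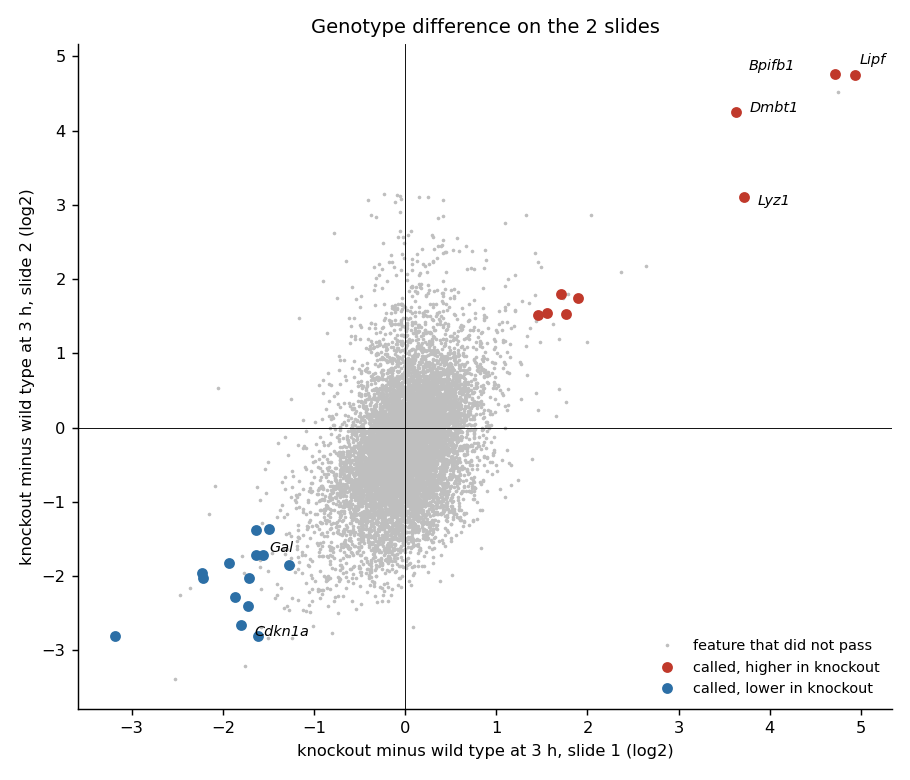
Knockout minus wild type at 3 h (log2) on slide 1 (x axis) and slide 2 (y axis), 1 point per feature, with the 9 features called higher in red and the 14 called lower in blue. Lipf, Bpifb1, Dmbt1 and Lyz1 stand far from all other called features on both slides, and the cloud of uncalled features is wider along slide 2.

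Among called genes with a symbol, Lipf, Bpifb1, Dmbt1 and Lyz1 had the largest differences, and all were higher in knockout. Their products are known as secreted proteins of saliva, mucus or the gut. Lipf, the acid lipase of the stomach and, in rodents, of the tongue, had log2 levels of 9.97 and 10.06 in knockout, against 5.04 and 5.30 in wild type, where it was not detected. The knockout level was higher by at least 16-fold (adjusted p = 5.98e-04). Dmbt1, a scavenger receptor glycoprotein of mucosal secretions, had log2 levels of 9.32 and 9.67 in knockout, against 5.70 and 5.43 in wild type, where it was also undetected. Its level in knockout exceeded wild type by at least 11.2-fold (adjusted p = 4.79e-04). Lyz1, a lysozyme of intestinal Paneth cells in the mouse, had log2 levels of 8.64 and 8.02 in knockout and 4.92 on both wild-type arrays, again below detection, a rise of at least 4.97-fold (adjusted p = 0.00261). In all 3 genes the knockout arrays lay far above the wild-type arrays. Bpifb1, a lipid-binding protein of airway and oral secretions, had log2 levels of 10.98 and 10.95 in knockout, against 6.26 and 6.19 in wild type, all detected, a log2 difference of 4.74 ± 0.64 (limma standard error, n = 2 arrays per group, as for all differences, adjusted p = 0.0314).

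The promoter window of Lipf is shown because this gene was called at 3 h under every alternative tried. It is the RefSeq window of 300 bases around the start, GRCm38.p6, chr19:33960998-33961297, plus strand. Capitals mark the single match to the letters TATANAA on either strand, a form of the TATA box.

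Lipf: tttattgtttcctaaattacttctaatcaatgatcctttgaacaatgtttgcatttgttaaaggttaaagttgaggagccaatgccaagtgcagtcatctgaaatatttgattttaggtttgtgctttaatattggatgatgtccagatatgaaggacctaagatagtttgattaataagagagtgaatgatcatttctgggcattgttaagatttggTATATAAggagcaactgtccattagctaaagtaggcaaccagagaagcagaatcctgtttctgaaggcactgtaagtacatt

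This motif occurs in 11.3% of the 32851 promoter windows of the table and in 12.5% of the 16 windows of called genes, where Bpifb1 holds the other match. A match describes the letters and is no measured site.

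Lipf and Dmbt1 were low on all other arrays, and Bpifb1 was not. In controls the log2 level of Lipf was 5.69 and 6.28 in knockout and 5.36 and 5.39 in wild type. At 1 h the log2 level of Lipf was 5.36 and 5.69 in knockout and 5.41 and 5.58 in wild type, and the probe was detected on the knockout 3 h arrays alone. Bpifb1 had log2 levels of 7.94 and 7.89 in knockout controls and 6.32 and 5.39 in wild-type controls. At 1 h the log2 level of Bpifb1 was 7.11 and 5.44 in knockout and 7.99 and 8.31 in wild type, where the wild type was the higher genotype, so its level varied between groups in both genotypes. Ltf, lactoferrin, had log2 levels of 6.98 and 7.58 in knockout and 5.77 and 5.52 in wild type at 3 h and did not pass (at least 2.40-fold higher, adjusted p = 0.126). The trefoil peptide gene Tff2, singled out after its values were seen, had log2 levels of 7.60 and 7.52 in knockout and 5.91 and 6.32 in wild type, a log2 difference of 1.45 ± 0.26 (adjusted p = 0.0810). Pip, a salivary and lacrimal secretory protein, was detected on the second knockout array alone, with log2 levels of 5.78 and 7.88 in knockout and 5.84 and 5.23 in wild type, which overlap.

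**Figure D2:**
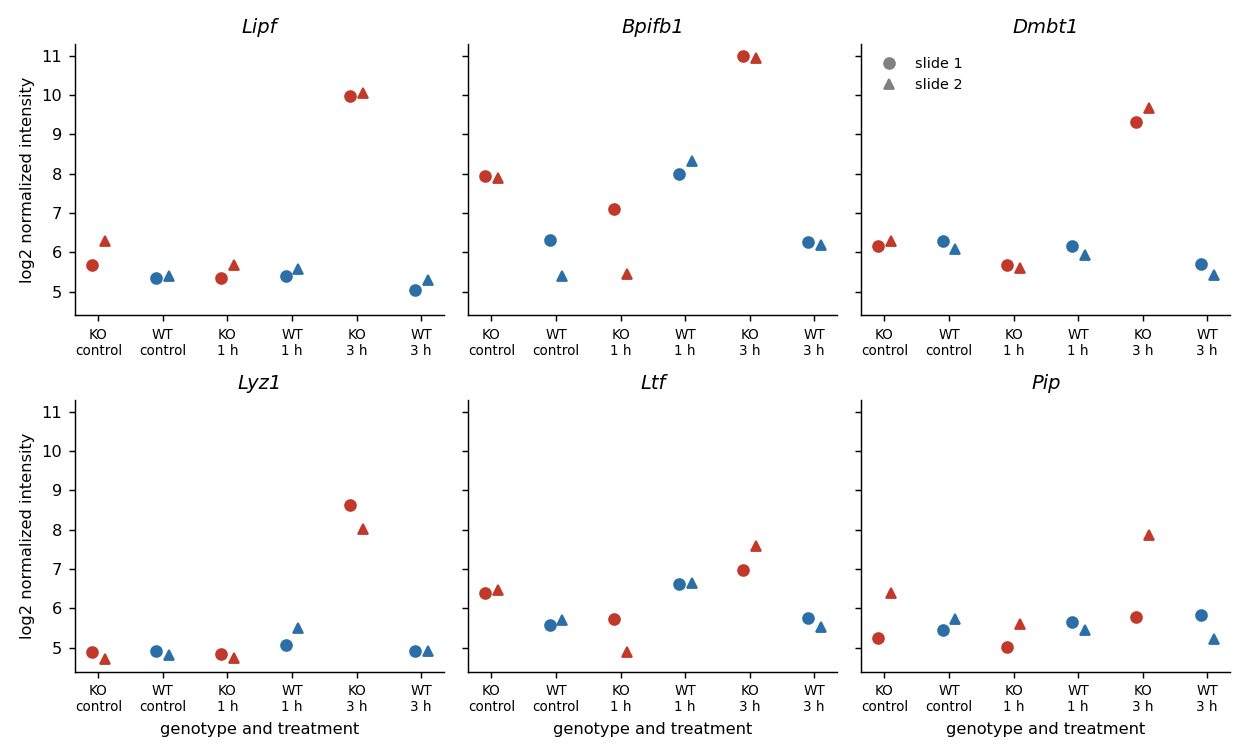
Log2 normalized intensity (y axis) of 6 genes of secretory epithelium in the 6 groups (x axis, knockout in red left of wild type in blue, circles for slide 1 and triangles for slide 2). Lipf, Dmbt1 and Lyz1 are high on the 2 knockout 3 h arrays and low on the other 10, while Bpifb1 and Ltf also vary among the other groups.

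Lipf, Lyz1, Bpifb1, Ltf and Pip belong to a list of markers of salivary, lingual and airway epithelium, and Dmbt1 and Tff2 do not. These 5 of its 16 members passed the detection filter, Lipf and Lyz1 through the knockout 3 h arrays alone, so that those 2 had to differ. Of the 5, 3 passed the test as higher, against 0.0765% of all features, and 4 were at least 1.5-fold higher on both slides, against 1.87%. Both counts include Lipf and Lyz1, and the list was written with earlier results of these data known. Set against these shares, the counts therefore do not show an enrichment of the list. With no detection filter all 16 members had a median log2 difference of 0.05. The summed linear intensity of all 16 members, unfiltered, was 4026 and 4105 on the knockout arrays and 654 and 635 on the wild-type arrays at 3 h, against 561 to 947 on the other 8 arrays. Without Lipf, Lyz1 and Amy1, which were detected on knockout 3 h arrays alone, the sum was 2553 and 2748 in knockout and 550 and 505 in wild type, and Bpifb1 made up most of the knockout value. Defining markers of the same tissues were not detected on any array, namely Aqp5, Muc5b, Smr2, Smr3a and Bpifa2 of salivary glands, Scgb1a1 and Foxj1 of airways, and Krt5 and Krt13 of stratified epithelium. Amy1, salivary amylase, was detected on 1 of the 12 arrays, a knockout 3 h array, and Bpifa1, an airway secretory protein, on 1, a wild-type 3 h array. None of the skeletal muscle markers on the array was detected on any array, and of the bone and cartilage markers only Acan was, at log2 levels of 6.46 and 7.02 in knockout and 6.64 and 5.89 in wild type. The part of RNA from other tissue in the levels of Lipf, Dmbt1, Lyz1 and Bpifb1 was not tested.

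The other genes higher in knockout with 1 symbol were 4 of mixed function. Rasgrp1, a diacylglycerol-activated exchange factor for Ras, had log2 levels of 9.18 and 9.15 in knockout and 7.28 and 7.40 in wild type (1.83 ± 0.23, adjusted p = 0.0275). A second Rasgrp1 probe showed a log2 difference of 0.14 ± 0.40 and did not pass, so the probes disagree. Mt3, a metallothionein best known from neurons, had log2 levels of 9.99 and 10.22 in knockout and 8.28 and 8.42 in wild type (1.76 ± 0.23, adjusted p = 0.0300). Its direction was the opposite of that of Mt1 and Mt2, described with the glucocorticoid-responsive genes. Ogdhl, a relative of a citric acid cycle dehydrogenase, had log2 levels of 8.36 and 8.37 in knockout and 6.80 and 6.83 in wild type (1.55 ± 0.24, adjusted p = 0.0497). Enc1, an actin-binding protein, had log2 levels of 8.51 and 8.60 in knockout and 6.75 and 7.07 in wild type (1.65 ± 0.25, adjusted p = 0.0497). Ogdhl and Enc1 lay just inside the threshold and missed it once slide was included in the fit (adjusted p = 0.0536 for both).

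Next in rank came genes that did not pass. Nrn1, the secreted neurite growth factor neuritin, had log2 levels of 8.17 and 8.69 in knockout and 5.53 and 6.51 in wild type (adjusted p = 0.110). Tomm22, a receptor for protein import into mitochondria, had log2 levels of 7.68 and 8.32 in knockout and was undetected in wild type (at least 3.95-fold, adjusted p = 0.0793), while a second probe differed by 0.18 ± 0.43. Hmgcll1, a lyase of ketone body synthesis, had log2 levels of 7.11 and 7.79 in knockout and was also undetected in wild type (at least 2.70-fold, adjusted p = 0.115). For Rgs5, a regulator of G protein signalling used as a pericyte marker, the probes pointed in opposite directions. The brighter Rgs5 probe had log2 levels of 8.99 and 9.04 in knockout and 7.47 and 7.51 in wild type (adjusted p = 0.133). The other had 4.92 and 5.47 in knockout and 8.25 and 8.29 in wild type, and it passed when every probe was tested (adjusted p = 0.00289). No direction is given for Rgs5.

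Among genes lower in knockout were a calcium channel, a neuropeptide and a cell cycle inhibitor. Cacna1h, a T-type calcium channel that opens at low voltage, had log2 levels of 5.72 and 5.65 in knockout, below detection, against 7.94 and 7.67 in wild type (at least 2.01-fold lower, adjusted p = 0.0314). Gal, the peptide galanin, which is made by lactotropes, had log2 levels of 9.03 and 9.21 in knockout and 10.68 and 10.92 in wild type (-1.68 ± 0.22, adjusted p = 0.0314). All 4 Gal values were detected and the groups lay well apart. Corin, a membrane protease that activates natriuretic peptides, was undetected in knockout at log2 levels of 4.98 and 4.85, against 7.21 and 6.81 in wild type (at least 1.16-fold lower, adjusted p = 0.0497, or 0.0570 with the slide as a term). Emb, a glycoprotein that escorts lactate transporters to the cell surface, had log2 levels of 9.33 and 8.90 in knockout and 10.89 and 10.61 in wild type (-1.64 ± 0.23, adjusted p = 0.0314). These 4 genes were also called lower in knockout in controls and at 1 h.

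Fcer1g, a signalling chain of Fc receptors, was undetected in knockout at log2 levels of 4.84 and 4.77, against 6.71 and 7.06 in wild type (at least 1.06-fold lower, adjusted p = 0.0497, or 0.0592 with the slide as a term). Eprs, which charges transfer RNA with glutamate and proline, had log2 levels of 6.30 and 5.57 in knockout, detected on the first array, and 8.02 and 7.97 in wild type (-2.06 ± 0.24, adjusted p = 0.0256). The Eprs probe was detected in neither genotype in controls, and at 1 h in wild type alone. Which Eprs transcript it reads was not tested. Raver2, an RNA-binding protein, had log2 levels of 6.29 and 6.56 in knockout, detected on the first array, and 7.94 on both wild-type arrays (-1.51 ± 0.21, adjusted p = 0.0314). In each of these 3 genes the groups did not overlap, which a call makes likely and which held at 42.0% of all features. Their knockout levels were at or near the limit of detection. Another 3 genes of lower rank did not pass. Obsl1, a cytoskeletal adaptor, had log2 levels of 6.31 and 5.31 in knockout and 8.84 and 8.70 in wild type (adjusted p = 0.0793, or 0.0300 with the slide as a term), while its 2 other probes differed by 0.28 ± 0.42 and -0.74 ± 0.37. Ceacam10, a secreted member of a cell adhesion family, was undetected in knockout and at log2 levels of 8.17 and 7.48 in wild type (at least 2.03-fold, adjusted p = 0.122). Eif3j1, a translation initiation factor subunit, was undetected in knockout and at log2 levels of 7.84 and 7.01 in wild type (at least 1.54-fold, adjusted p = 0.113).

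**Figure D3:**
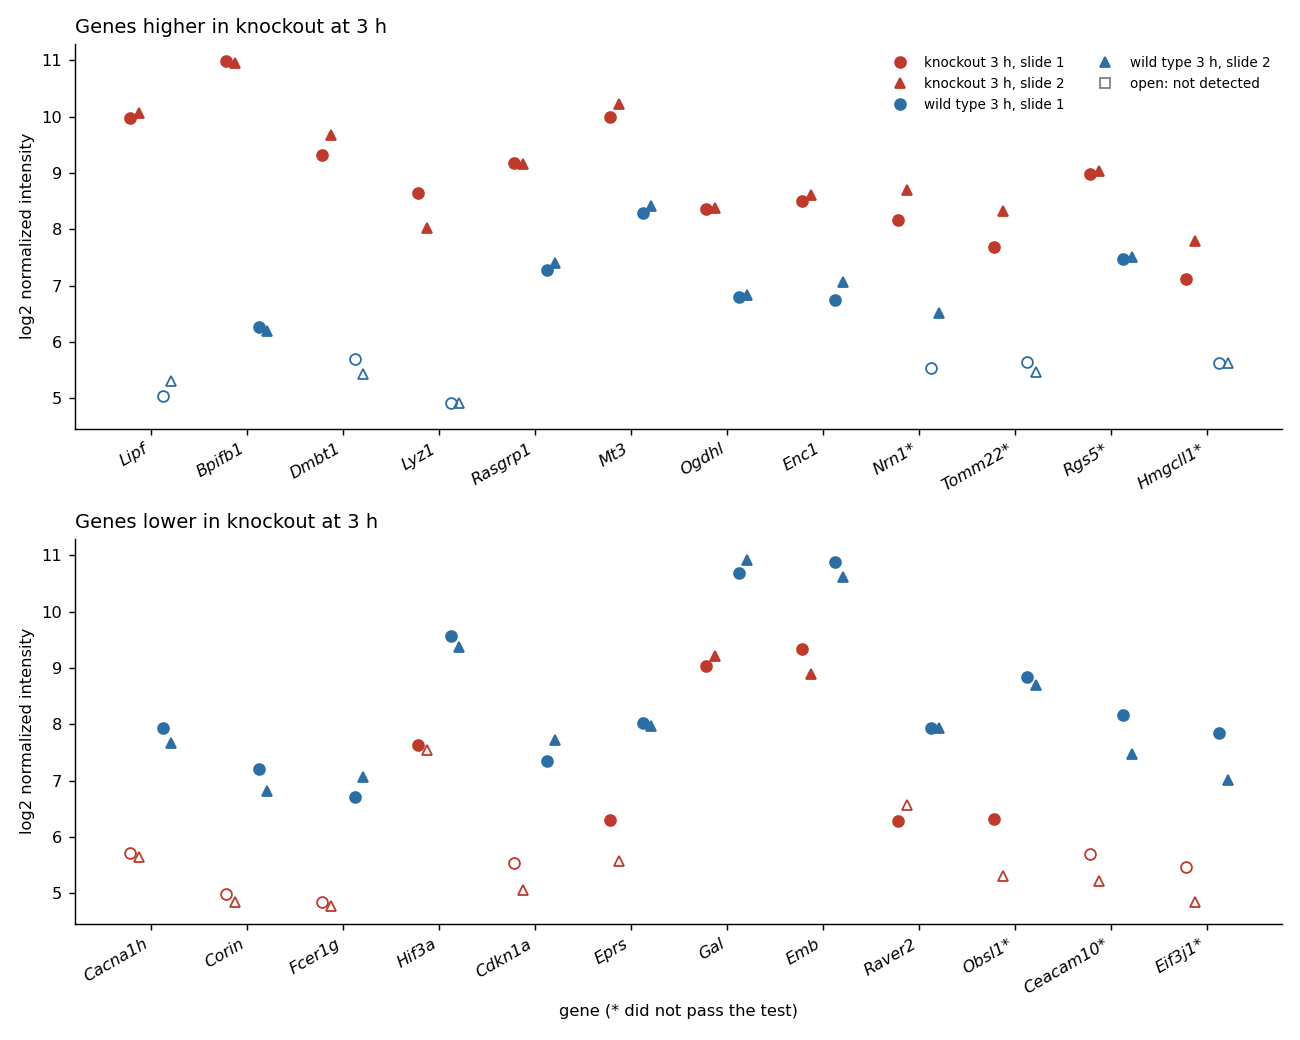
Log2 normalized intensity (y axis) of the 12 highest-ranked genes in each direction (x axis) at 3 h, knockout in red left of wild type in blue, circles for slide 1, triangles for slide 2, open symbols where the probe was not detected. The rule that chose the 24 genes makes groups that do not overlap likely, and 10 of the 12 genes in the lower panel are undetected on at least 1 knockout array.

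Of 28 listed genes that glucocorticoids are known to induce, 24 were measured at 3 h. Of these, 21 had a negative difference, against 7016 of all 11766 features. With the test passed 2 fell, against 0.119% of all features, and 0 rose. On both slides 11 of the 24 were at least 1.5-fold lower and 0 at least 1.5-fold higher, against 4.17% and 1.87% of all features. On the first slide alone, which leaves out the weak knockout array, 13 were at least 1.5-fold lower and 0 higher. The median log2 difference of the list was -0.79, being -0.71 on slide 1 and -1.04 on slide 2, against -0.09 over all features. Under every other scaling and background correction it lay between -1.19 and -0.49. The -1.19 came with median centring, where all features had -0.51, and the -0.49 with no background correction, where they had -0.06. The list median minus that of all features was -0.70 in the main fit, -0.68 with median centring and -0.43 with no background correction. With no detection filter 27 members had a median of -0.72. The list was written with earlier results of these data known.

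Cdkn1a, the cell cycle inhibitor p21, had log2 levels of 5.54 and 5.06 in knockout, below detection, against 7.34 and 7.72 in wild type (at least 1.66-fold lower, adjusted p = 0.0275). A second Cdkn1a probe differed by -1.82 ± 0.32 and did not pass (adjusted p = 0.0795). Hif3a, a hypoxia-inducible factor subunit that glucocorticoids also induce, had log2 levels of 7.64 and 7.55 in knockout, detected on the first array, and 9.57 and 9.38 in wild type (-1.88 ± 0.24, adjusted p = 0.0275), while a dimmer Hif3a probe differed by 0.53 ± 0.72. Cdkn1a and Hif3a were also called lower in knockout in controls and at 1 h. The next genes are given as values that did not pass.

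Mt1 and Mt2, metal-binding metallothioneins, had log2 levels of 12.33 and 12.65 (Mt1) and 8.81 and 7.95 (Mt2) in knockout, against 13.28 and 13.46 (Mt1) and 10.07 and 9.41 (Mt2) in wild type. Their log2 differences were -0.88 ± 0.26 and -1.35 ± 0.38, against 0.06 and 0.40 in controls, where neither passed. Fkbp5, a chaperone that holds back the glucocorticoid receptor, had log2 levels of 7.87 and 7.15 in knockout and 8.84 and 8.31 in wild type (-1.07 ± 0.33, adjusted p = 0.307). Pdk4, which limits entry of pyruvate into the citric acid cycle, had log2 levels of 7.39 and 7.20 in knockout and 8.31 and 8.62 in wild type (-1.17 ± 0.42). Angptl4, an inhibitor of lipoprotein lipase, had log2 levels of 6.38 and 4.97 in knockout and 7.56 and 7.29 in wild type (-1.75 ± 0.42). Errfi1, an inhibitor of epidermal growth factor receptors, had log2 levels of 8.47 and 7.78 in knockout and 9.33 and 9.51 in wild type (-1.30 ± 0.24, adjusted p = 0.0810). These genes were chosen after their values were seen, and groups that do not overlap were found at 42.0% of all features.

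Other members of the list lay close together in the 2 genotypes. Sgk1, a kinase of salt transport, had log2 levels of 8.97 and 9.23 in knockout and 8.84 and 9.24 in wild type (0.06 ± 0.25). Dusp1, a MAP kinase phosphatase, had 10.30 and 10.40 in knockout and 10.41 and 10.48 in wild type (-0.10 ± 0.28), and the levels of Cebpb, a transcription factor, were 9.13 and 9.46 in knockout and 8.77 and 9.01 in wild type (0.41 ± 0.24). The list as a whole had a median genotype difference of -0.46 in controls and -0.16 at 1 h. From unstressed controls to 3 h its median was 0.29 in knockout and 0.40 in wild type. These last medians use the same 3 h arrays as the genotype comparison.

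Promoter windows were found for 19 of the 24 measured genes, 29 windows in all. The full palindromic glucocorticoid response element, searched as AGAACA, any 3 bases, then TGTTCT on both strands, occurred in 1 of them, that of Sgk1, and in 3 of the 32851 windows of the table (0.00913%). The Sgk1 window is shown because it holds this match while the gene's level was alike in the genotypes. It lies at chr10:21993640-21993939, plus strand, GRCm38.p6, RefSeq, with the match in capitals.

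Sgk1: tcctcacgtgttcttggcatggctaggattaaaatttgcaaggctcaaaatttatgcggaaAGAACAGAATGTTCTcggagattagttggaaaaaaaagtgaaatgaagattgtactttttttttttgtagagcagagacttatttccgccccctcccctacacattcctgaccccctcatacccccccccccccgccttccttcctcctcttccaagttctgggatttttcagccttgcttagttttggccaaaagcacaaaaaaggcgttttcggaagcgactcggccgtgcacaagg

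The letters AGAACA alone, a single arm of the palindrome on either strand, occurred in 24.1% of the list's windows and in 19.0% of all windows. That the other windows lack the full letters says nothing of sites outside these 300 bases.

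**Figure D4:**
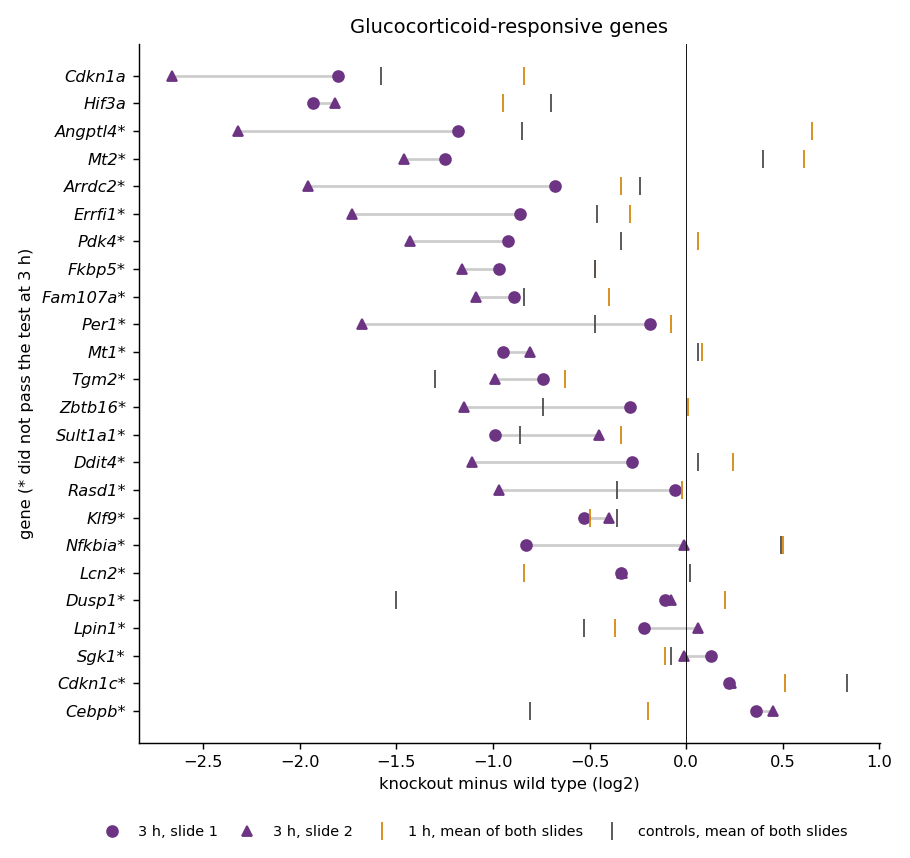
Knockout minus wild type (log2, x axis) of the 24 measured glucocorticoid-responsive genes (y axis) at 3 h on slide 1 (circles) and slide 2 (triangles), with the means of both slides at 1 h (orange ticks) and in controls (dark ticks). At 3 h 21 genes have a negative mean difference, as do 7016 of all 11766 features, and Cdkn1a and Hif3a lie lowest.

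Hormone genes showed no called difference. Pomc, Gh and Prl sat at the top of the intensity range, at log2 levels of 15.57, 16.04 and 15.82 on all 4 arrays, where quantile normalization gives equal ranks equal values, so nothing can be read from their agreement. Of 8 measured corticotrope and melanotrope genes 0 passed and 0 were at least 1.5-fold apart on both slides. Their median was 0.23 (-0.18 with median centring, where that of all features was -0.51). Tbx19, the factor that specifies corticotropes, had log2 levels of 8.19 and 8.81 in knockout and 8.10 and 8.39 in wild type, which overlap. Of 9 measured gonadotrope and thyrotrope genes 0 passed (median 0.27, or -0.08 with median centring). On both slides 2 of the 9 were at least 1.5-fold higher, against 1.87% of all features. Lhb, the luteinizing hormone subunit, had log2 levels of 13.07 and 12.71 in knockout and 12.20 and 12.02 in wild type (0.78 ± 0.39, adjusted p = 0.534), and Fshb, the follicle-stimulating hormone subunit, 12.32 and 11.77 in knockout and 11.68 and 10.99 in wild type. Gata2, a factor of these lineages, had 9.82 and 10.32 in knockout and 9.34 and 9.45 in wild type (0.68 ± 0.22, adjusted p = 0.340). Of 9 somatotrope and lactotrope genes 0 passed, and Drd2, the dopamine receptor that restrains prolactin, had log2 levels of 8.54 and 8.56 in knockout and 7.80 and 7.49 in wild type (0.91 ± 0.25, adjusted p = 0.244). Avpr1b, the vasopressin receptor of corticotropes, was detected on 1 of the 4 arrays, at log2 levels of 5.77 and 5.20 in knockout and 6.40 and 5.94 in wild type.

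Markers of the other cells of the gland showed 1 called gene, Fcer1g. Of 13 measured macrophage and MHC class II markers 1 fell, against 0.119% of all features, and 0 rose. The median of these markers was 0.28, opposite in sign to Fcer1g under quantile normalization. With median centring it was -0.16, where the median of all features was -0.51. Their summed linear intensity was 3445 and 3498 in knockout and 2705 and 2597 in wild type at 3 h. H2-Eb1, a class II chain, had log2 levels of 8.20 and 8.35 in knockout and 7.63 on both wild-type arrays (0.64 ± 0.23, adjusted p = 0.373), and Lyz2, the macrophage lysozyme, 7.99 and 7.18 in knockout and 6.20 and 5.38 in wild type (1.80 ± 0.59, adjusted p = 0.329, or 0.0404 with the slide as a term). Lyz2 is a near copy of Lyz1, and the files do not say whether their probes share targets. The fibroblast list had 0 of 11 called and a median of 0.47, against -0.09 over all features. With median centring it was -0.06, against -0.51 over all features. On both slides 2 of the list were at least 1.5-fold higher and 1 lower, against 1.87% and 4.17% of all features. The summed intensity of the fibroblast list was 7497 and 8228 in knockout and 5326 and 5479 in wild type. Matrix Gla protein, Mgp, had log2 levels of 10.48 and 10.92 in knockout and 9.89 and 9.94 in wild type (0.79 ± 0.23). The collagen genes Col1a1 and Col3a1 were detected on 1 knockout array and 0 wild-type arrays each.

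The folliculostellate and stem cell markers had 0 of 8 called, with Krt18, an epithelial keratin, at log2 levels of 9.38 and 9.48 in knockout and 8.51 and 8.74 in wild type (0.81 ± 0.26, adjusted p = 0.324). Sox9, a progenitor factor, differed by 0.43 ± 0.34, and Sox2 was undetected in wild type. Of 13 endothelial and pericyte markers 0 passed, with 0.76 ± 0.35 for Cdh5 and 0.43 ± 0.50 for Pecam1, both adhesion molecules of endothelium. Of 5 red blood cell markers 0 passed. The globins Hba-a1 and Hbb-bs differed by 0.10 ± 0.24 and 0.15 ± 0.21, with further Hbb-bs probes between -0.20 and 1.86, while Hbb-bt, undetected in wild type, lay at least 2.82-fold higher in knockout (adjusted p = 0.340). Globin copies share sequence, and their probes may not tell them apart. Neuron, oligodendrocyte and pituicyte markers had 0 of 8 called and medians of opposite sign on the slides, 0.30 and -0.75, with -0.65 ± 0.38 for Mbp, the myelin basic protein, while Mag, another myelin protein, was undetected at 3 h. The other Mbp probes pointed the opposite way, by 0.62 ± 0.30 and 1.14 ± 0.52.

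Activation genes downstream of the receptor did not move together. Of 21 measured immediate early transcription factors 0 passed. On both slides 1 was at least 1.5-fold higher and 2 lower, against 1.87% and 4.17% of all features. The list median was -0.09 (0.04 with cyclic loess), the same as over all features. Fos, the AP-1 subunit that marks recent stimulation, had log2 levels of 9.42 and 9.54 in knockout and 8.06 and 7.86 in wild type (1.52 ± 0.56, adjusted p = 0.398). Without stress the order was the opposite, with a log2 difference of -2.67 for Fos in controls, and the change between the 2 comparisons did not pass (4.19 ± 0.66, adjusted p = 0.0815). Egr1, an early growth response factor, had log2 levels of 9.58 and 9.04 in knockout and 10.30 and 9.93 in wild type (-0.80 ± 0.33), and Ier3, an early response gene, 7.31 and 7.09 in knockout and 8.29 and 8.41 in wild type (-1.15 ± 0.23, adjusted p = 0.113). Fosb differed by -0.03 ± 0.64. Of 13 cAMP-responsive genes 0 passed (median -0.07), with 0.14 ± 0.22 for Crem, a cAMP-driven transcription factor, and -0.07 ± 0.38 for Pde4b, which breaks down cAMP. Of 10 MAPK phosphatases and feedback genes 0 passed (median -0.32), among them Dusp5 at -0.35 ± 0.25 and Dusp14 at -1.0 ± 0.33. Rgs4 of the same list, a brake on G protein signalling, differed by 1.0 ± 0.29. Its log2 levels were 10.51 and 10.89 in knockout and 9.50 and 9.90 in wild type. These did not overlap, as was found at 42.0% of all features.

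Clock, cytokine and protein stress lists had no called gene. Of 13 circadian clock genes 10 had negative differences, against 7016 of all 11766 features. On both slides 2 were at least 1.5-fold lower, against 4.17% of all features. Nr1d2, a clock repressor, had log2 levels of 6.81 and 6.06 in knockout and 8.06 and 7.91 in wild type (-1.55 ± 0.35, adjusted p = 0.144), while a second probe differed by -0.34 ± 0.60. Cry2, another repressor, had 8.09 and 7.77 in knockout and 8.97 and 8.88 in wild type (-1.0 ± 0.23, adjusted p = 0.155), and Per1 and Per2 differed by -0.93 ± 0.38 and -0.05 ± 0.27. In the cytokine and acute-phase list, 0 of 14 passed. Serpina3n, an acute-phase protease inhibitor, had log2 levels of 7.27 and 7.26 in knockout and 8.45 and 8.79 in wild type (-1.36 ± 0.41, adjusted p = 0.291). Il6ra, the interleukin 6 receptor, differed by -1.37 ± 0.41, and the cytokine signalling inhibitors Socs3 and Socs2 by -0.18 ± 0.22 and 0.54 ± 0.22. Of 12 heat shock proteins 1, the small chaperone Hspb1, was at least 1.5-fold lower on both slides, against 4.17% of all features. Its log2 levels were 8.39 and 8.10 in knockout and 9.43 and 9.23 in wild type (-1.09 ± 0.24, adjusted p = 0.144). Hspa8 differed by -0.50 ± 0.20, with its other probes between -0.02 and 0.19, and Hsph1 by -0.21 ± 0.24. In the unfolded protein response list, 0 of 19 passed and the median was 0.00. Atf4, its transcription factor, had log2 levels of 8.38 and 8.70 in knockout and 6.96 and 6.35 in wild type (1.88 ± 0.47, adjusted p = 0.177), while Ddit3, a target of Atf4, differed by -0.38 ± 0.28.

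Metabolic lists held Emb and few other large differences. Of 22 genes of glycolysis, lactate transport and pyruvate fate 1 fell, Emb, against 0.119% of all features. On both slides 3 were at least 1.5-fold lower, against 4.17% of all features, which adds Pdk4 and hexokinase Hk2 (-0.74 ± 0.24). Of 18 cholesterol and fatty acid synthesis genes 16 had negative differences, against 7016 of all 11766 features. Their median was -0.31, and 0 passed. Insig1, which holds sterol regulators in the endoplasmic reticulum, differed by -1.28 ± 0.30 (adjusted p = 0.162) and by -1.58 ± 0.36 on a second probe. Lss, lanosterol synthase, differed by -1.32 ± 0.30, and Hmgcs1 by -0.53 ± 0.21. Sqle, squalene epoxidase, differed by 0.01 ± 0.26 on its brighter probe and by -0.72 ± 0.36 on the other. In the retinoic acid list 0 of 8 passed (median -0.51), with -1.22 ± 0.26 for Cyp26b1, which degrades retinoic acid, and -1.25 ± 0.41 for Aldh1a1, which makes it. Cyp26b1 had log2 levels of 8.59 and 8.28 in knockout and 9.66 and 9.64 in wild type (adjusted p = 0.127).

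Among 20 thioredoxin, peroxiredoxin and glutathione genes 0 passed. Srxn1, which repairs oxidised peroxiredoxins, had log2 levels of 9.26 and 9.27 in knockout and 10.42 and 10.34 in wild type (-1.11 ± 0.21, adjusted p = 0.0910). Its 2 other probes were lower by larger margins, with log2 differences of -1.97 ± 0.29 (adjusted p = 0.0432) and -2.15 ± 0.27 (adjusted p = 0.0259), and both passed when every probe was tested. All 3 Srxn1 probes had knockout levels below wild-type levels on both slides. Txn2 differed by -0.82 ± 0.32, and Txnl1 was undetected at 3 h.

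The ion channel and translation lists each held 1 called gene, Cacna1h of 17 and Eprs of 29. Both were called lower, as were 0.119% of all features. The channel list had 13 negative differences, against 7016 of all 11766 features, and a median of -0.40. The translation list had a median of -0.13, close to that of all features. Of 22 splicing factors and cold-inducible RNA-binding genes 0 passed. On both slides 3 were at least 1.5-fold lower, against 4.17% of all features. Srsf5, a splicing factor, had log2 levels of 9.28 and 9.0 in knockout and 10.09 and 10.11 in wild type (-0.96 ± 0.23, adjusted p = 0.169), and a second probe differed by -0.60 ± 0.46. Ddx5, an RNA helicase, was undetected in knockout, at log2 levels of 5.21 and 5.13, against 6.69 and 6.52 in wild type, too dim for a bound, and the cold-inducible genes Cirbp and Rbm3 differed by -0.08 ± 0.32 and -0.16 ± 0.34.

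Large lists of housekeeping genes lay near the median of all features. The 67 measured cytosolic ribosomal proteins had a median of 0.01 (-0.52 with median centring and -0.01 with cyclic loess), and 0 passed. Of the 67, Rpl29 and Rpl30 were at least 1.5-fold higher on both slides, against 1.87% of all features. Rpl29 was undetected in wild type, at least 3.02-fold higher in knockout and did not pass (adjusted p = 0.0997), and Rpl30 differed by 1.19 ± 0.36 while a dimmer probe differed by 0.10 ± 0.82. Ribosomal protein genes have many processed copies, so their values are uncertain. Rpl3 and Rpl4 differed by 0.12 ± 0.22 and -0.47 ± 0.55, and a second Rpl4 probe by 0.17 ± 0.54. The 67 respiratory chain subunits had a median of -0.04, with 0.23 ± 0.19 for Ndufa1 and 0.07 ± 0.29 for Ndufa2, and the 29 proteasome subunits one of -0.09, with -0.19 ± 0.50 for Psma1 and 0.02 ± 0.25 for Psma2. The secretory granule list had 0 of 21 called and a median of -0.02, with -0.03 ± 0.22 for Chga (0.65 ± 0.25 on a second probe) and 0.20 ± 0.22 for Chgb, the granins of hormone granules. None of 12 cell cycle genes (Pcna -0.26 ± 0.54, Mki67 undetected) and none of 8 hypoxia-responsive genes (Vegfa 0.40 ± 0.28, Adm undetected in knockout) passed, and none of these was at least 1.5-fold apart on both slides.

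**Figure D5:**
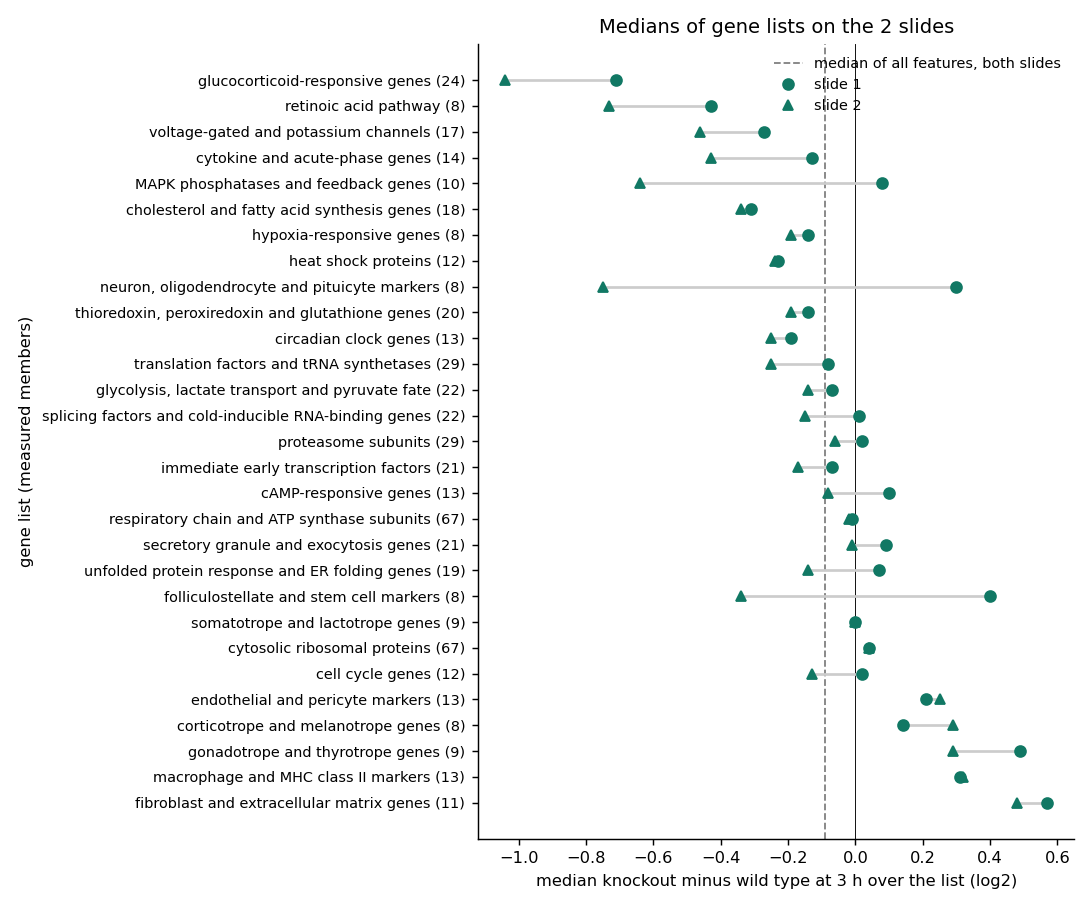
Median knockout minus wild type at 3 h (log2, x axis) over each list with at least 8 measured genes (y axis, number measured in brackets) on slide 1 (circles) and slide 2 (triangles), with the median of all features as a dashed line. The glucocorticoid-responsive list lies lowest, at -0.71 and -1.04, and the neuron list is the farthest apart between slides, at 0.30 and -0.75.

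The genotype difference at 3 h was then set beside that in controls and at 1 h, which come from other arrays. In controls 878 features (7.46%) passed and at 1 h 465 (3.95%), against 23 at 3 h, where the error was larger. Across all features, which are not independent and share the array design, the differences at 3 h correlated at 0.0748 with those in controls and at 0.144 with those at 1 h, while controls and 1 h correlated at 0.361. Of the 23 called features, 17 had the same sign in controls and 17 at 1 h, and 14 in both, of which 12 were lower in knockout. The same call in the same direction was made for 12 in controls, for 9 at 1 h and for 8 in both. Those 8 were all lower in knockout and included Gal, Emb, Corin, Cacna1h, Cdkn1a and Hif3a. For Gal the log2 difference was -1.28 in controls, -1.02 at 1 h and -1.68 at 3 h, and the change from controls was not called (adjusted p = 0.510). Corin was detected on 0 of the 6 knockout arrays and on all 6 wild-type arrays.

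A test of the change in genotype difference between controls and 3 h called 7 features (0.0595%), 6 with a more positive difference at 3 h and 1 with a more negative one, while 1752 had an unadjusted p under 0.05. It called Lipf, Dmbt1 and Lyz1 (adjusted p = 0.00481, 0.00130 and 0.00600). In controls Lipf and Lyz1 were detected in neither genotype, and Dmbt1 on 1 array of each. Mt3 was lower in knockout in controls by a log2 difference of -1.61 and higher at 3 h by 1.76 (adjusted p of the change = 0.00153). Emb was undetected on both knockout control arrays, at log2 levels of 4.83 and 4.88, against 10.72 on both wild-type control arrays, while its log2 difference was -1.09 at 1 h and -1.64 at 3 h (adjusted p of the change from controls = 5.38e-04). Rasgrp1 had -0.22 in controls and 1.83 at 3 h (adjusted p of the change = 0.0450). For the glucocorticoid-responsive genes the change was called for 0 of 24, with -1.75 ± 0.46 for Mt2 (adjusted p = 0.146) and -1.18 ± 0.28 for Hif3a (adjusted p = 0.135).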

How the data were processed

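The deposited files give, per the file headers, the mean bead intensity of each probe on each array, not normalized, with its bead standard error, and a detection p-value that the authors' software computed. BeadStudio is named in the submitters' processing notes, with no version. A second deposited table holds the authors' normalized intensity values by an unstated method and served as an alternative. Computation used limma 3.58.1 in R 4.3.3: normexp background correction from the detection p-values (offset 16), quantile normalization and log2. Probes detected at p under 0.01 on at least 2 of 12 arrays were kept (14405 of 46133), and per symbol the brightest was taken, which gave 11766 features, 8592 of them named from the array's probe table. Of 46147 probes, 29542 had 1 symbol, 11 several and 16594 none. The fit held all 12 arrays, 1 term and 1 variance weight per group, and Benjamini-Hochberg adjustment. Where a group was undetected on both arrays, a fold is a bound, with each array's dim value set no lower than the lowest detected signal. The number of arrays limits the precision. Named genes were the 12 called genes in each direction with the largest smaller-of-2 slide differences, filled with uncalled ones, the targeted gene, and up to 4 called or the first 2 measured genes per list. Genes outside this rule, such as Fkbp5, Mt2, Srxn1 and Tff2, were chosen after their values were seen. The members and the 34 lists were chosen with earlier results of these data known. Replicate numbers equal slides per the file headers. Deviations of knockout and wild-type 3 h arrays with the same number correlated at 0.368, and over 15 pairs of groups the range was -0.155 to 0.472.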

Additional observations from a re-analysis of the deposited data

Results flagged for a closer look

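The difference between genotypes at 3 h was set against that in controls and at 1 h by a test of the change itself (limma, Benjamini-Hochberg adjustment). Against controls, the log2 change of the genotype difference was 4.23 ± 0.40 for Lipf, 3.89 ± 0.30 for Dmbt1, 3.49 ± 0.35 for Lyz1, 3.37 ± 0.27 for Mt3 and 2.05 ± 0.27 for Rasgrp1. It was 4.22 ± 0.27 for Emb. Lipf and Lyz1 were undetected in controls and in wild type at 3 h, Dmbt1 was undetected in wild type at 3 h, and Emb was undetected in knockout controls, so these 4 fitted values are set against probes below background and are no exact sizes. Probe 105910041, which has no gene name and was detected on the knockout control arrays alone, changed by -3.46 ± 0.44 (adjusted p = 0.0351).

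Against 1 h, 16 features (0.136%) changed. The log2 change was 6.62 ± 0.77 for Bpifb1, which was lower in knockout at 1 h, 4.82 ± 0.40 for Lipf, 4.34 ± 0.30 for Dmbt1, 3.91 ± 0.35 for Lyz1, 2.97 ± 0.42 for Ltf and 2.55 ± 0.31 for Tff2. Of these, Lipf, Dmbt1, Lyz1 and Ltf were undetected in knockout at 1 h and in wild type at 3 h, and Tff2 in knockout at 1 h, so their values are no exact sizes either. Rasgrp1 changed by 2.65 ± 0.27. Arrdc4, an arrestin-domain protein, changed by -2.40 ± 0.32, Lrrc27, a leucine-rich repeat protein undetected in knockout at 3 h, by -2.49 ± 0.33, and Ttc27, a tetratricopeptide repeat protein, by -3.12 ± 0.40. Ttc27 had a log2 difference of 3.31 at 1 h and 0.18 at 3 h. The unnamed probes changed by 2.76 ± 0.29 (undetected at 3 h in both genotypes), 2.05 ± 0.28, 1.91 ± 0.27, 1.70 ± 0.25, -1.92 ± 0.26 and -3.32 ± 0.41.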

How the results depend on the processing

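Against 23 called features, there were 202 with no array weights, 3 with the 4 arrays at 3 h alone, 49 with probes detected on both arrays of a 3 h group, 46 with a normexp offset of 50, 69 with no background correction, 2 with median centring, 104 with cyclic loess, 14 in the authors' normalized table and 131 with an intensity trend and robust prior. One weight per array gave the same fit as 1 per group. Leaving out 1 array gave 3 to 2688, namely 3 without either wild-type 3 h array, 60 without knockout 3 h replicate 2 and 2688 without knockout 3 h replicate 1. A group left with 1 array is assumed to vary like the others. Without either wild-type 3 h array the 3 called genes were Lipf, Dmbt1 and Lyz1, and with median centring the 2 were Lipf and Dmbt1. The count for the change from controls, 7, was 20 with no array weights, 50 with the larger offset, 177 with no background correction, 0 with median centring, 55 with cyclic loess, 3 in the authors' table, 349 with trend and robust prior and 4 to 1913 when 1 array was left out. The replicate block, with the slide as a term, gave 25, of which 17 were among the 23. Of the genes named in the text, Ogdhl, Enc1, Corin and Fcer1g did not pass with it, and Obsl1 and Lyz2 did. Lipf passed under all 27 alternatives, Dmbt1 in 26 and Lyz1 in 25. The remaining called genes with a symbol failed the test in 5 (Eprs) to 15 (Enc1 and Corin) of the 27. These 27 are not separate checks, because 1 weight per array is the same fit and no fold minimum can only add calls. Within each 1 h or control group, leaving out the first or the second array also gave equal counts at 3 h. Each of these counts was below that of the full fit. Directions of the 17 called genes with a symbol never reversed. Epithelium markers at least 1.5-fold higher on both slides numbered 3 or 4, while 63 to 299 of all features were. Glucocorticoid-responsive genes at least 1.5-fold lower numbered 10 to 14 (both counts were added after the data were seen). The 14 came with median centring, where 12.4% of all features were lower on both slides. With no background correction the count was 10, against 1.04% of all features.

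Uncalled genes near 0 changed sign. With median centring the log2 differences were -0.31 for Tbx19, -0.13 for Sox9, -0.48 for Hba-a1, -0.42 for Hbb-bs, -0.08 for Pecam1, -0.34 for Crem, -0.07 for Socs2, -0.56 for Sqle, -0.39 for Rpl3, -0.35 for Ndufa1, -0.50 for Ndufa2, -0.56 for Psma2, -0.36 for Chgb, -0.20 for Vegfa and -0.05 for Adm. With cyclic loess they were 0.06 for Crhr1 (feature undetected at 3 h), 0.24 for Pde4b, -0.01 for Psma2, 0.09 for Txnl1 and 0.02 for Mki67 (both undetected at 3 h), and Pde4b was at 0.03 in the authors' table. When 1 array was left out, the log2 difference ran from -0.32 to 0.05 for Crhr1, -0.06 to 0.56 for Tbx19, -0.02 to 0.46 for Sox2, -0.25 to 1.11 for Pecam1, -0.30 to 1.15 for Col3a1, -0.58 to 0.51 for Fosb, -0.60 to 0.47 for Pde4b, -0.20 to 0.09 for Per2, -1.34 to 0.41 for Rpl4, -0.49 to 0.10 for Psma1, -0.14 to 0.18 for Psma2, -0.35 to 0.19 for Cirbp, -0.28 to 0.09 for Mki67, -0.66 to 0.15 for Pcna, -0.09 to 0.69 for Adm and -0.01 to 0.03 for Sqle. With median centring the median of all features was itself -0.51, against -0.09 in the main fit. The sign changes under median centring are therefore part of a shift of all features. What else moved these genes was not tested.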

Other observations

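Probe 104060685, which has no gene name, had log2 levels of 9.88 and 9.77 on the knockout arrays, against 5.13 and 5.25 on the wild-type arrays at 3 h, where it was not detected. It did not pass the test (adjusted p = 0.0569). Its fitted log2 difference was 4.06 in controls and 4.12 at 1 h, so the higher knockout level was not particular to 3 h. The change from controls was not called (adjusted p = 0.792). Probe 101240059, also unnamed, was undetected in knockout at log2 levels of 4.73 and 4.89, against 7.91 and 7.70 in wild type at 3 h, and it passed (adjusted p = 0.0463). It was also undetected in knockout in controls and at 1 h, and detected on all 6 wild-type arrays.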
